A study of Mus musculus with 23 samples.

Results

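The 38 genes described here are targets and components of the NF-kB pathway, with the cytokines, chemokines and adhesion molecules of inflamed tissue. They were chosen by name from a list and read by gene identifier in the deposited table of counts, which holds 49315 genes. All 38 were found, and all 38 passed the filter on low counts that left 15500 genes for testing. Total RNA was taken from the left ventricle, which pumps blood into the aorta, of FVB mice, an inbred laboratory strain. Mice were exposed to filtered air, E-cigarette vehicle, or E-cigarette vehicle with nicotine during 3 months (5 days per week, 4 hours each), and were 3 weeks or 3 months old when exposure began. The comparisons address what the aerosol does to ventricular transcripts and whether a start in adolescence differs from a start in adulthood. There were 4 air, 3 vehicle and 4 nicotine libraries of the 3-week start (air libraries 1, 2, 4 and 5, vehicle libraries 1, 2 and 4, nicotine libraries 2, 3, 5 and 6). The 3-month start had 4 libraries per group (air libraries 1, 2, 4 and 5, vehicle and nicotine libraries 1 to 4). Exposure was equally long from either start, so the starting age cannot be told apart from the age at the end, nor from any batch between the ages, since the labels give none. Nothing in the labels ties each library to an animal of its own, so p-values measure only how far these samples spread, and part of that spread may be technical.

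NF-kB is a family of transcription factors that rest in the cytoplasm, bound by inhibitor proteins of the IkB family. Ligands such as interleukin-1, tumour necrosis factor and bacterial lipids act through receptors and adaptors that lead to destruction of the inhibitor, and NF-kB then enters the nucleus. Its targets include chemokines and cytokines, adhesion molecules that endothelium uses to catch leukocytes, and its own inhibitors, which end the response. In heart tissue these genes are known to be switched on in endothelium, fibroblasts, cardiomyocytes and resident macrophages after injury or infection. In whole-tissue RNA, fewer cells of a type and less RNA per cell cannot be told apart.

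The sequence that NF-kB recognises is shown for 6 members whose levels are described below: 2 chemokines, 1 cytokine, 1 NF-kB subunit and 2 inhibitors. RefSeq promoter windows of build GRCm38.p6, from 250 bases before to 50 bases after a gene's start, were matched by symbol for 29 of the 38 members. The NF-kB consensus of 10 bases, searched on both strands with overlapping matches counted once, was found in 11 of these 29 genes (37.9%). It was found in 5.14% of all genes with a window and in 4.51% of the 32851 windows. The windows printed here are from the reference strain and not from FVB, run 5′ to 3′ on the gene's strand and lie wholly before the start, with matches in capitals.
Cxcl1 (chr5:90891150-90891209, + strand): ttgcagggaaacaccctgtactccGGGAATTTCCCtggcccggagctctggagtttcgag
Cxcl2 (chr5:90903778-90903837, + strand): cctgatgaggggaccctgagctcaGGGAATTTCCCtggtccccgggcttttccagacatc
Il6 (chr5:30013045-30013104, + strand): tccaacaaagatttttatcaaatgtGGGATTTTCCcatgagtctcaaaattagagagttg
Nfkb2 (chr19:46304677-46304736, + strand): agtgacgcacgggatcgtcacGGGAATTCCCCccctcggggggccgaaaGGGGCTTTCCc
Nfkbia (chr12:55492648-55492707, - strand): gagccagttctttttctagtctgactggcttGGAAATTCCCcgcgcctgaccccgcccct
Tnfaip3 (chr10:19015411-19015470, - strand): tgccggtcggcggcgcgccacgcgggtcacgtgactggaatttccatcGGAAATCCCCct
Cxcl1 and Cxcl2, which lie close together on chromosome 5, carry the same 11 capital letters. The Nfkb2 window holds 2 separate matches. A match is a stretch of letters and says nothing of whether the factor was bound in these ventricles.

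Library totals ran from 12297955 counts in a 3-week nicotine library to 17821550 in a 3-month air library. Levels are given as CPM, the usual scaling of counts to a common library size, with TMM factors. The 9 ventricular cardiomyocyte markers summed to between 80510 and 101462 CPM in every library, and lung epithelium markers to at most 0.748 CPM. Replicates of the 3-week start were more variable, with a common biological coefficient of variation of 0.236, than those of the 3-month start, with 0.106. For the members its median in the joint fit was 0.238, against 0.162 for all genes tested.

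Before any comparison, 2 of the 4 air libraries of the 3-week start stood apart in these genes. Il6, the cytokine that signals through the gp130 receptor, had 3.70 and 6.31 CPM in air libraries 1 and 5, but no count in air library 2 and 0.0694 CPM in air library 4. Ptgs2, the inducible prostaglandin synthase (COX-2), had 22.6 and 16.9 CPM in air libraries 1 and 5 and 0.682 and 0.278 CPM in air libraries 2 and 4. Cd14, the co-receptor for bacterial lipopolysaccharide, had 37.6 and 38.2 CPM against 5.25 and 6.73 CPM in the same order. In 30 of the 38 members (78.9%), both air libraries 1 and 5 lay above both air libraries 2 and 4, which held for 30.3% of all genes tested. The 8 exceptions were Tnf, Csf1, Tnfrsf1b, Ripk2, Vcam1, Myd88, Irak3 and Tlr2. These 2 libraries were singled out by their levels of the members, so the split is a description with no test, and each comparison that uses 3-week air is given with and without them. The heat map of levels per library shows the pattern over all members.

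**Figure D1:**
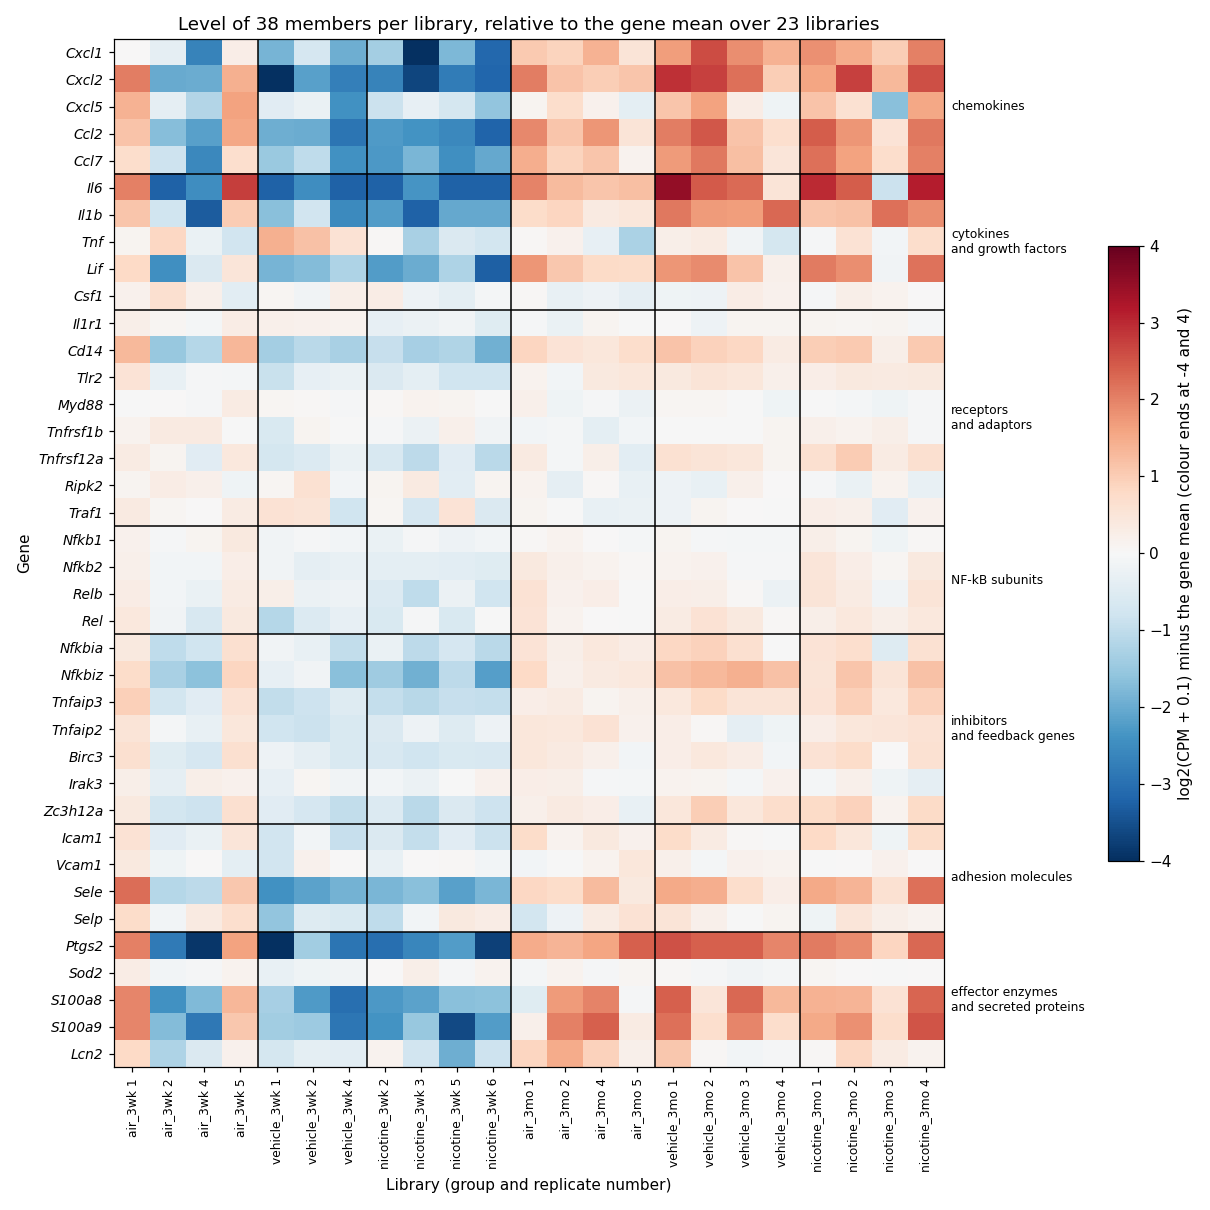
Level of each of the 38 members (rows, grouped by role) in each of the 23 libraries (columns, by group), as log2(CPM + 0.1) minus the gene's mean over the libraries; red is above and blue below that mean, and colours end at -4 and 4. Chemokines, Il6, Il1b, Lif, Sele, Ptgs2, S100a8 and S100a9 are blue in 3-week vehicle, 3-week nicotine and 3-week air libraries 2 and 4, and mostly red in 3-week air libraries 1 and 5 and in the 3-month libraries.

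Markers of several kinds differed between the libraries or groups compared here. The 10 neutrophil markers that are not members summed to 6.85, 2.26, 2.92 and 6.71 CPM in 3-week air libraries 1, 2, 4 and 5, to 1.84 to 2.57 CPM in 3-week vehicle, 1.58 to 3.02 CPM in 3-week nicotine and 3.87 to 11.8 CPM in the 3-month libraries. Of the 10, 4 had counts enough for testing. The defining genes Ly6g, Mpo and Elane had at most 1 count in any library. S100a8 and S100a9, which are members, are neutrophil genes too. The 16 immediate early genes, such as Fos and Egr1, which respond to stimulation within minutes, summed to 2435, 1799, 484 and 2701 CPM in the 3-week air libraries in the same order, to 858, 2254 and 632 CPM in vehicle libraries 1, 2 and 4, to 447 to 990 CPM in nicotine and to 2226 to 5360 CPM with the 3-month start. Air library 2 and vehicle library 2 thus had high immediate early genes, and members differed there. Il6 had 0 and 1 counts. Cxcl1 had 14.7 CPM in air library 2 against 2.85 CPM in air library 4. It had 11.9 CPM in vehicle library 2 against 5.14 and 4.78 CPM in vehicle libraries 1 and 4. The 6 blood and erythroid markers (haemoglobin chains, Alas2 and Slc4a1) summed to 1087 to 1406 CPM in 3-week nicotine, wholly above 3-week air with 505 to 931 CPM and 3-month nicotine with 408 to 553 CPM. In 3-week vehicle they summed to 2363, 467 and 499 CPM in libraries 1, 2 and 4, in 3-month air to 304 to 722 CPM and in 3-month vehicle to 660 to 893 CPM. Atrial cardiomyocyte markers summed to 395, 144, 151 and 238 CPM in 3-week air libraries 1, 2, 4 and 5. In 3-week vehicle libraries 1, 2 and 4 they summed to 132, 564 and 159 CPM. Adipocyte markers summed to 410, 763, 727 and 521 CPM in these air libraries and to 1009, 1358 and 633 CPM in these vehicle libraries. In 3-week nicotine the sums were 104 to 157 CPM for atrial and 638 to 1020 CPM for adipocyte markers. Macrophage and monocyte markers lay between 211 and 366 CPM and endothelial markers between 1360 and 2174 CPM in all libraries. The macrophage and monocyte sums were 284 to 366 CPM in 3-week air, wholly above 3-month air with 229 to 260 CPM. For 3-month minus 3-week air all 12 of these markers tested had negative estimates (median log2 fold change -0.40), and none passed. The part of all these lists in the results that follow was not tested.

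**Figure D2:**
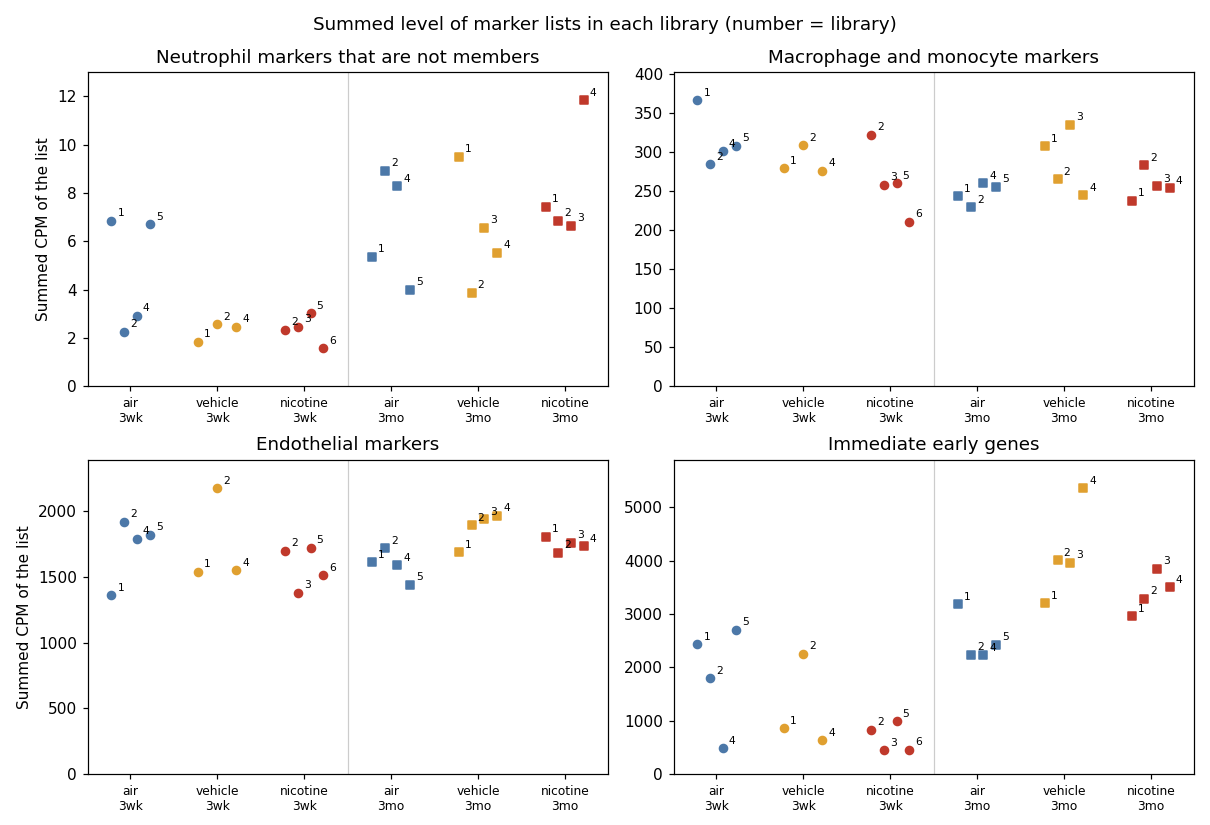
Summed CPM (linear axes from 0) of 4 marker lists in each library, by group, with circles for the 3-week and squares for the 3-month start and the library number beside each point. Neutrophil markers that are not members are higher in 3-week air libraries 1 and 5 and the 3-month libraries than in the other 3-week libraries. Macrophage and endothelial markers show no such division. Immediate early genes are high in 3-week air libraries 1, 2 and 5, 3-week vehicle library 2 and the 3-month libraries.

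Members differed widely in level per length of transcript. On the scale of mean CPM per kilobase of exon over all libraries, Sod2, the mitochondrial superoxide dismutase, was highest at 57.7, followed by Nfkbia, which encodes the inhibitor IkB-alpha, at 55.8 and Tnfrsf12a, the receptor for the cytokine TWEAK, at 39.0. The chemokines Ccl2 and Cxcl1 had 20.5 and 17.9. Il6 had 1.12, Cxcl5 0.320, the adaptor Traf1 0.240 and Selp, the P-selectin of platelets and endothelium, 0.154. Of the 4 NF-kB subunits, Nfkb2 had 9.24, Nfkb1 5.33, Relb 5.13 and Rel 1.58.

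With the 3-week start, 7 of the 38 members fell in nicotine against air and none rose, with Benjamini-Hochberg adjusted p-values of edgeR's quasi-likelihood test between 0.0319 and 0.04996. Of all genes tested, 0.723% were called lower and 0.0903% higher. The 7 were Cxcl2, Ccl2, Il1b, Tnfrsf12a, Nfkb2, Tnfaip3 and Sele. In 37 of 38 members the estimate was negative (46.8% of all genes), the median log2 fold change was -0.73 against 0.02 over all genes, and 26 members had an unadjusted p under 0.05 (12.8% of all genes). In vehicle against air, 13 members fell and none rose, against 6.92% of all genes called lower and 9.27% higher. Here 34 of 38 estimates were negative (48.8% of all genes) with a median of -0.68, and 26 members had an unadjusted p under 0.05 (37.3% of all genes). Both comparisons share the 4 air libraries. In fits of the compared groups alone or of the 3-week libraries alone, whose replicates were more variable, 0 members passed in either comparison. Of the 16 immediate early genes, 5 fell in nicotine and 3 in vehicle, and of the 5 blood markers tested none passed in either, with median log2 fold changes of 0.84 and 0.23.

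Among the chemokines, 2 of 5 fell in each of these comparisons. Cxcl2, a neutrophil attractant, had 9.56, 0.472, 0.486 and 6.11 CPM in air libraries 1, 2, 4 and 5, then 0, 0.416 and 0.252 CPM in vehicle libraries 1, 2 and 4, and 0.261, 0.0823, 0.232 and 0.158 CPM in nicotine libraries 2, 3, 5 and 6. Neither aerosol group overlapped air, but air libraries 2 and 4 lay close to the highest vehicle library. Cxcl2 fell by 4.40 ± 0.99 (SE) on the log2 scale in nicotine (adjusted p = 0.0430) and by 4.14 ± 1.05 in vehicle (adjusted p = 0.0239). Ccl2, the main monocyte attractant, had 25.8, 3.51, 2.499 and 34.2 CPM in air, 2.94, 2.84 and 1.45 CPM in vehicle, and 2.35, 2.14, 1.86 and 1.18 CPM in nicotine. Nicotine lay below all air libraries, whereas vehicle overlapped air library 4. On the same scale Ccl2 fell by 3.11 ± 0.73 in nicotine (adjusted p = 0.0495) and by 2.78 ± 0.78 in vehicle (adjusted p = 0.0307). Cxcl1, Cxcl5 and Ccl7 had log2 fold changes of -1.03 to -2.21 in the 2 comparisons and passed the threshold in neither. Cxcl1, Cxcl2 and Cxcl5, and likewise Ccl2 and Ccl7, are related genes whose reads could in part be shared.

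Cytokines and growth factors held 1 call in each comparison. Il1b, the interleukin made as an inactive precursor by activated myeloid cells, had 3.58, 0.892, 0.0694 and 3.35 CPM in air, 0.441, 0.902 and 0.189 CPM in vehicle and 0.261, 0.0823, 0.309 and 0.316 CPM in nicotine. Air library 4 was the lowest of all 11 libraries, so that the groups overlapped. Il1b fell in nicotine (log2 fold change -2.97 ± 0.71, adjusted p = 0.04996), and its value for vehicle was -1.95 ± 0.68 (adjusted p = 0.0522). Il6 was almost absent from both aerosol groups, with 1 count over the 3 vehicle libraries and 1 count over the 4 nicotine libraries against 155 counts over the air libraries. Per depth, its vehicle level was 0.00949 of the air level (95% interval 0.000239 to 0.0537) and its nicotine level 0.00785 (0.000197 to 0.0444). These intervals cover counting error only. Air libraries 2 and 4 held 1 Il6 count between them, as few as the aerosol groups. Il6 passed the threshold for vehicle (adjusted p = 0.0358).

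Tnf, the founding cytokine of its family, had 1.91, 3.25, 1.46 and 1.01 CPM in air, 4.92, 4.09 and 2.71 CPM in vehicle and 1.83, 0.658, 1.16 and 1.03 CPM in nicotine. Vehicle and nicotine did not overlap, and vehicle was the highest of the 6 groups in mean. The macrophage growth factor Csf1 had means of 47.2 to 61.9 CPM over the 6 groups.

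Of the 8 receptors and adaptors, Tnfrsf12a fell in both comparisons and Cd14 in vehicle. Tnfrsf12a had 88.6, 75.4, 50.9 and 93.5 CPM in air, 42.9, 47.6 and 58.0 CPM in vehicle and 44.4, 33.6, 51.2 and 33.2 CPM in nicotine. Air library 4 lay among the aerosol libraries, and the other 3 air libraries above them all. Tnfrsf12a fell by 0.92 ± 0.20 on the log2 scale in nicotine (adjusted p = 0.0335) and by 0.64 ± 0.22 in vehicle (adjusted p = 0.0484). Cd14 had 5.81, 7.15 and 6.10 CPM in vehicle and 7.96, 6.004, 6.50 and 3.95 CPM in nicotine, near air libraries 2 and 4. Its log2 fold change was -1.78 ± 0.50 for vehicle (adjusted p = 0.0293) and -1.84 ± 0.45 for nicotine (adjusted p = 0.0599). Myd88, the adaptor shared by interleukin-1 and Toll-like receptors, had means of 13.3 to 13.7 CPM in the 3 groups, and the kinase Ripk2 5.12 to 5.72 CPM.

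Among the 4 NF-kB subunits, Nfkb2, the precursor of the subunit p52, fell in both comparisons and Rel fell in vehicle. Nfkb2 had 47.6, 38.6, 38.7 and 50.1 CPM in air, 37.3, 32.1 and 33.8 CPM in vehicle and 31.5, 31.9, 30.7 and 29.8 CPM in nicotine. All air libraries lay above all aerosol libraries, by a small margin at air libraries 2 and 4. Its log2 fold change was -0.50 ± 0.11 for nicotine (adjusted p = 0.0335) and -0.35 ± 0.12 for vehicle (adjusted p = 0.0472). Rel, the subunit c-Rel, had a log2 fold change of -0.71 ± 0.24 for vehicle (adjusted p = 0.0452). Nfkb1 and Relb had log2 fold changes of -0.32 and -0.71 for nicotine and of -0.27 and -0.14 for vehicle, and passed the threshold in neither.

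Of the 7 inhibitors and feedback genes, Tnfaip3 fell in both comparisons and Tnfaip2 in vehicle. Tnfaip3, which encodes the ubiquitin-editing inhibitor A20, had 15.4, 4.72, 5.76 and 11.9 CPM in air, 3.97, 4.44 and 5.54 CPM in vehicle and 4.05, 3.62, 4.10 and 4.03 CPM in nicotine. The nicotine libraries lay within 0.5 CPM of each other and below every air library. The log2 fold change of Tnfaip3 was -1.25 ± 0.26 for nicotine (adjusted p = 0.0319) and -1.01 ± 0.28 for vehicle (adjusted p = 0.0286). Tnfaip2 had 67.5, 44.1, 37.97 and 64.1 CPM in air, 27.0, 25.8 and 30.5 CPM in vehicle and 31.7, 40.9, 32.6 and 40.4 CPM in nicotine. Vehicle lay below every air and every nicotine library. Its log2 fold change was -0.94 ± 0.18 for vehicle (adjusted p = 0.0141) and -0.55 ± 0.16 for nicotine, above the threshold. Nfkbia, Nfkbiz, Birc3, Irak3 and Zc3h12a passed in neither comparison.

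Both selectins fell in vehicle and Sele in nicotine as well. Sele, the E-selectin of activated endothelium, had 13.6, 1.21, 1.32 and 6.11 CPM in air, 0.441, 0.555 and 0.692 CPM in vehicle and 0.718, 0.823, 0.542 and 0.711 CPM in nicotine. Even the lowest air library exceeded every aerosol library. Sele fell by 2.98 ± 0.64 on the log2 scale in nicotine (adjusted p = 0.0335) and by 3.27 ± 0.73 in vehicle (adjusted p = 0.0184). Selp had 1.11, 0.577, 0.833 and 1.07 CPM in air and 0.147, 0.416 and 0.378 CPM in vehicle, which did not overlap (log2 fold change -1.47 ± 0.43, adjusted p = 0.0332). Its highest library here held 18 counts. Icam1 and Vcam1, which bind leukocyte integrins, passed in neither comparison.

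Ptgs2 and S100a8 fell in vehicle, and no effector passed in nicotine. Ptgs2 had 0.220, 2.01 and 0.629 CPM in vehicle and 0.587, 0.823, 1.08 and 0.316 CPM in nicotine. The vehicle range enclosed air libraries 2 and 4 (0.682 and 0.278 CPM). Air library 2 lay within the nicotine range and air library 4 below it. The log2 fold change of Ptgs2 was -3.39 ± 0.98 for vehicle (adjusted p = 0.0324) and -3.83 ± 0.94 for nicotine (adjusted p = 0.0597). S100a8, one chain of the calprotectin of neutrophils and monocytes, had a log2 fold change of -3.69 ± 1.24 for vehicle (adjusted p = 0.0478), with 4 counts over the vehicle and 81 over the air libraries. Sod2 had 607 ± 79.9 (SD, n = 4), 503 ± 29.4 (SD, n = 3) and 609 ± 53.5 (SD, n = 4) CPM in air, vehicle and nicotine.

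The calls were lost when any of several libraries was left out. Without air libraries 1 and 5, a choice made from the members' own values, 0 of 38 members passed in nicotine against air, against 0.0443% of all genes in either direction, with 29 negative estimates and a median of -0.23 (9 members had an unadjusted p under 0.05). For vehicle against air it was likewise 0 of 38, against 0% of all genes, with 25 negative estimates and a median of -0.15 (5 members under 0.05 unadjusted). Leaving out air library 1 alone, air library 5 alone or any 1 nicotine library left 0 members called for nicotine, whereas leaving out air library 2 or air library 4 gave 21 and 19. For vehicle, leaving out air library 1, vehicle library 1 or vehicle library 2 left 0, air library 5 left 2, and air libraries 2 and 4 gave 23 and 21. Shares of all genes called are not given for these refits, so the higher counts may not be particular to the members. The share of counts on noncoding genes, a sign of RNA makeup, was 2.60% and 2.22% in vehicle libraries 1 and 2 and 1.46% in vehicle library 4, against 1.18% to 1.53% in air and 1.41% to 3.16% in nicotine. Its part in the result was not tested. The rank correlation of level with exonic length was 0.235 and 0.236 in vehicle libraries 1 and 2 and 0.302 in vehicle library 4. In nicotine libraries 2, 3, 5 and 6 it was 0.237, 0.291, 0.247 and 0.305, and in air 0.274 to 0.303. Member counts from the fit with a length offset are not given here.

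**Figure D3:**
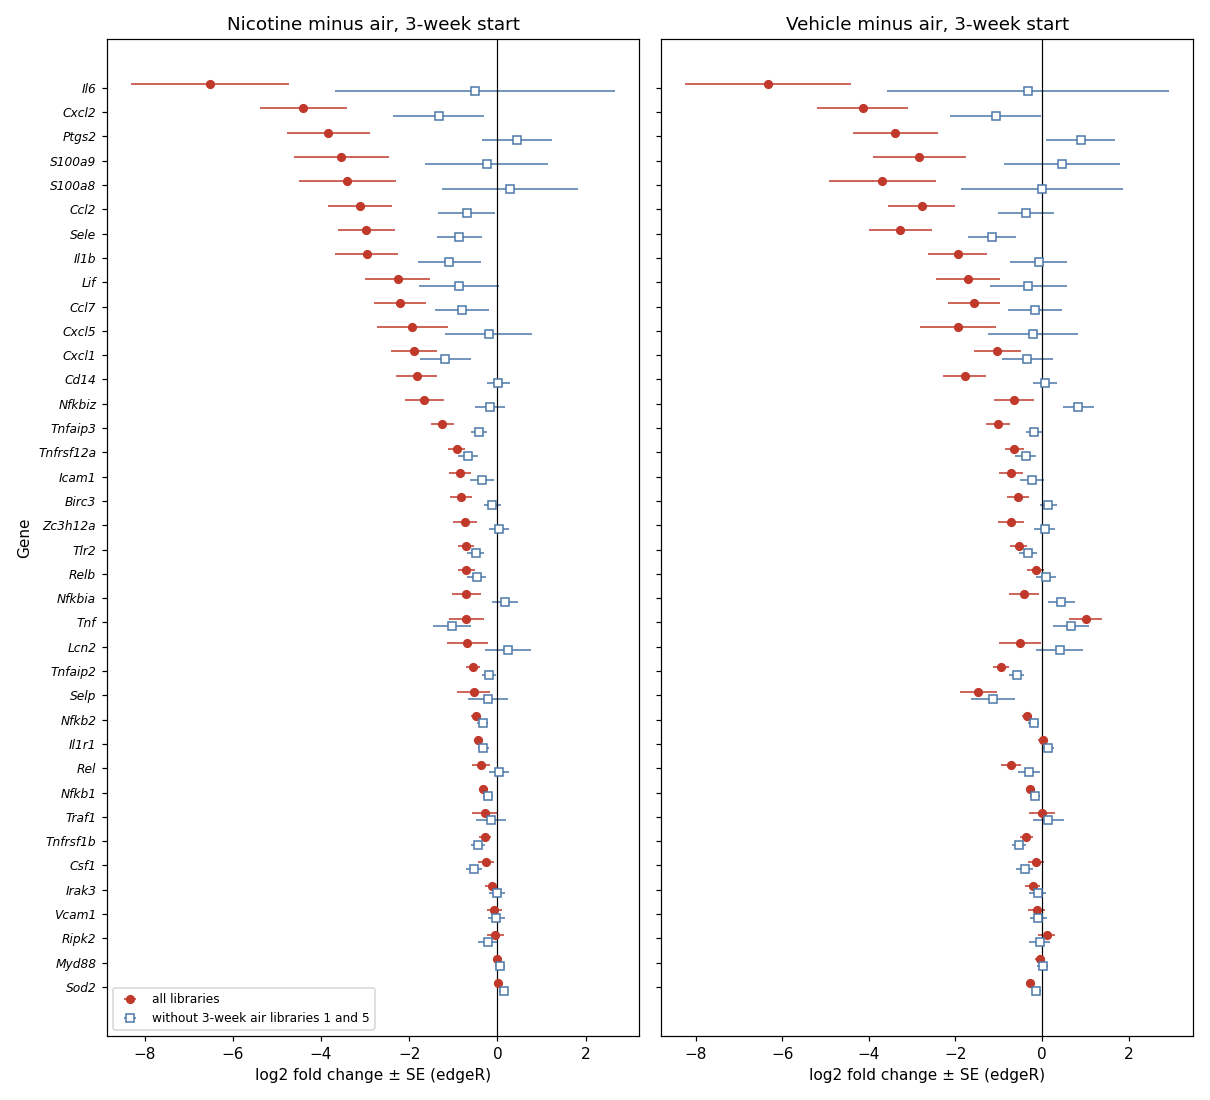
Log2 fold change ± SE of each member (rows) in the 3-week start, for nicotine minus air (left) and vehicle minus air (right), with all libraries (red circles) and without 3-week air libraries 1 and 5 (open blue squares). With all libraries 37 and 34 of 38 values lie left of 0; without the 2 air libraries those of Il6, Ptgs2, S100a8 and S100a9 lie between -0.51 and 0.89 with SEs of 0.787 to 3.26.

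Groups that did not overlap were counted as well. In nicotine against air 9 members lay wholly lower and 0 higher (2.63% and 2.57% of all genes), namely Tnfaip3, Sele, Nfkb2, Cxcl2, Ccl2, Il1r1, Tlr2, Icam1 and Nfkb1. In vehicle against air 7 lay wholly lower and 0 higher (4.19% and 5.06% of all genes), namely Tnfaip2, Sele, Cxcl2, Selp, Nfkb2, Sod2 and Nfkb1.

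Between nicotine and vehicle of the 3-week start, 0 members passed the threshold of edgeR's test, against 0% of all genes, and 6 had an unadjusted p under 0.05 (19.3% of all genes). DESeq2 called 1 member, Il1r1, and its share of all genes called is not given here. The 2 smallest p-values were those of Tnf and of Il1r1, the signalling receptor for interleukin-1. Tnf had a log2 fold change of -1.71 ± 0.40 (adjusted p = 0.122). Il1r1 had 18.6, 18.1 and 17.7 CPM in vehicle and 12.8, 13.7, 14.6 and 11.4 CPM in nicotine, which did not overlap (log2 fold change -0.47 ± 0.12, adjusted p = 0.122). In all, 27 of 38 estimates were negative (51.8% of all genes). Tnf, Il1r1, Nfkb2 and Birc3 lay wholly lower and Sod2 and Tnfaip2 wholly higher in nicotine (2.36% and 2.52% of all genes). Without vehicle library 4, edgeR called 4 members, Tnf, Il1r1, Relb and Sod2, in a comparison where 30.3% of all genes then passed.

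With the 3-month start, no member passed the threshold of edgeR's test in nicotine against air, vehicle against air or nicotine against vehicle, as was so for all genes (0% called in each). DESeq2 called 0 members in these 3 comparisons too, and 3, 4 and 2 members had an unadjusted p under 0.05 (2.63%, 14.2% and 12.2% of all genes). Median log2 fold changes were 0.22 for nicotine against air, with 33 positive estimates (53.3% of all genes), 0.19 for vehicle against air, with 28 (51.9%), and 0.04 for nicotine against vehicle, with 22 (48.4%).

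In nicotine against air, Tnfrsf12a and Il1b had the smallest p-values. Tnfrsf12a had 90.7, 65.7, 81.8 and 52.1 CPM in air libraries 1, 2, 4 and 5 and 108, 141, 88.0 and 110 CPM in nicotine libraries 1 to 4. The groups overlapped by nicotine library 3 and air library 1, and the log2 fold change was 0.62 ± 0.20 (adjusted p = 0.9998). Il1b had 2.75, 2.99, 2.09 and 2.24 CPM in air, 7.25, 5.46, 5.36 and 8.33 CPM in vehicle and 3.56, 3.71, 7.68 and 6.15 CPM in nicotine. Air lay below both aerosol groups, and the log2 fold change of Il1b was 1.07 ± 0.47 for nicotine (adjusted p = 0.9998) and 1.39 ± 0.47 for vehicle (adjusted p = 0.295). Tnfaip2 had 64.4, 63.7, 70.9 and 53.0 CPM in air, 56.8, 48.1, 36.8 and 41.6 CPM in vehicle and 56.5, 64.2, 66.1 and 70.7 CPM in nicotine. Vehicle was the lowest group for Tnfaip2 from either start, here overlapping the others by its library 1. Its log2 fold change was -0.46 ± 0.16 for vehicle against air (adjusted p = 0.299) and 0.49 ± 0.16 for nicotine against vehicle (adjusted p = 0.3975). Nfkb2 was next in nicotine against vehicle, with 58.6, 50.4, 43.7 and 55.0 CPM in nicotine and 45.8, 47.0, 40.1 and 40.2 CPM in vehicle. Nicotine library 3 lay among the vehicle libraries (log2 fold change 0.26 ± 0.11, adjusted p = 0.399).

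Members with groups that did not overlap numbered 3 higher in nicotine than air (Il1b, Tnfrsf1b and Tnfaip3) and 6 higher in vehicle than air (the same 3 with Cxcl1, Nfkbiz and Zc3h12a). Over all genes the shares were 1.99% and 8.52%. None lay wholly lower (1.71% and 11.6% of all genes). In nicotine against vehicle, Nfkbiz lay wholly lower (6.66% of all genes) and none wholly higher (12.2%). Fitted on the 8 libraries compared, vehicle against air had 5 members called, Il1b, Nfkbiz, Tnfaip3 and Zc3h12a higher and Tnfaip2 lower, with 18.4% of all genes called. Nicotine against vehicle then had 1, Tnfaip2, with 15.8% of all genes called.

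The nicotine effects at the 2 starting ages were compared directly, as nicotine minus air with the 3-week start less nicotine minus air with the 3-month start. Of 38 members 2 differed, both lower, against 0.103% of all genes called lower and 0.0323% higher. They were Tnfrsf12a (-1.55 ± 0.28 on the log2 scale, adjusted p = 0.0255) and Tnfaip3 (-1.76 ± 0.36, adjusted p = 0.0486). Tnfrsf12a was lower in nicotine than in air by 0.92 with the younger start and had a value of 0.62 with the older start, and Tnfaip3 had -1.25 and 0.50. Of the members, 35 had a negative difference (48.9% of all genes), with a median of -1.04 against 0.01 over all genes. An unadjusted p under 0.05 was reached by 28 members (10.2% of all genes). Both calls were lost without air library 1 or 5, both of these, or nicotine library 2, 3 or 6 of the 3-week start, and without air library 2, 4 or 5 or nicotine library 1, 2 or 4 of the 3-month start. Without nicotine library 5 of the 3-week or air library 1 of the 3-month start 1 call was left, and without air library 2 or 4 of the 3-week start there were 13 and 15. For the vehicle effect, 0 of 38 differed in edgeR's test (0% of all genes), 34 had a negative difference (48.5%) and 21 had an unadjusted p under 0.05 (12% of all genes). DESeq2 called 1, Tnfrsf12a. The smallest p-values were those of Cxcl2 (-5.14 ± 1.21, adjusted p = 0.198) and Il1b (-3.34 ± 0.82, adjusted p = 0.205). Without vehicle library 4, air library 4 or air library 2 of the 3-week start, 6, 4 and 3 members were called. For DESeq2 and the fits with libraries left out, shares of all genes called are not given here. A change in count may thus not be particular to the members.

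Starting ages were also compared within each exposure. In nicotine, 24 of 38 members (63.2%) were higher with the 3-month start and none lower, against 5.03% of all genes called higher and 4.49% lower. In vehicle 21 members (55.3%) were higher and none lower, against 5.09% and 7.38% of all genes. Median log2 fold changes were 1.15 in nicotine and 0.95 in vehicle, against -0.02 over all genes in each. In the same comparisons 5 of 5 blood and erythroid markers tested fell in nicotine (median -1.44) and 0 of 5 passed in vehicle (median -0.14). Immediate early genes rose in 13 of 16 cases in nicotine and 10 of 16 in vehicle, and 2 and 1 of 4 neutrophil markers that are not members rose. Positive estimates numbered 34 in nicotine (47.6% of all genes) and 32 in vehicle (47.7%). In air 0 of 38 passed in edgeR's test (0.00645% of all genes) or in DESeq2, 6 had an unadjusted p under 0.05 (9.08% of all genes) and 23 estimates were positive (49%). Whether the age difference in an aerosol group differs from that in air is, apart from sign, the difference of effects tested above. There 2 of 38 members passed for nicotine (0.135% of all genes) and 0 of 38 for vehicle (0% of all genes). The comparisons within nicotine and vehicle were added after the members' values had been seen.

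**Figure D4:**
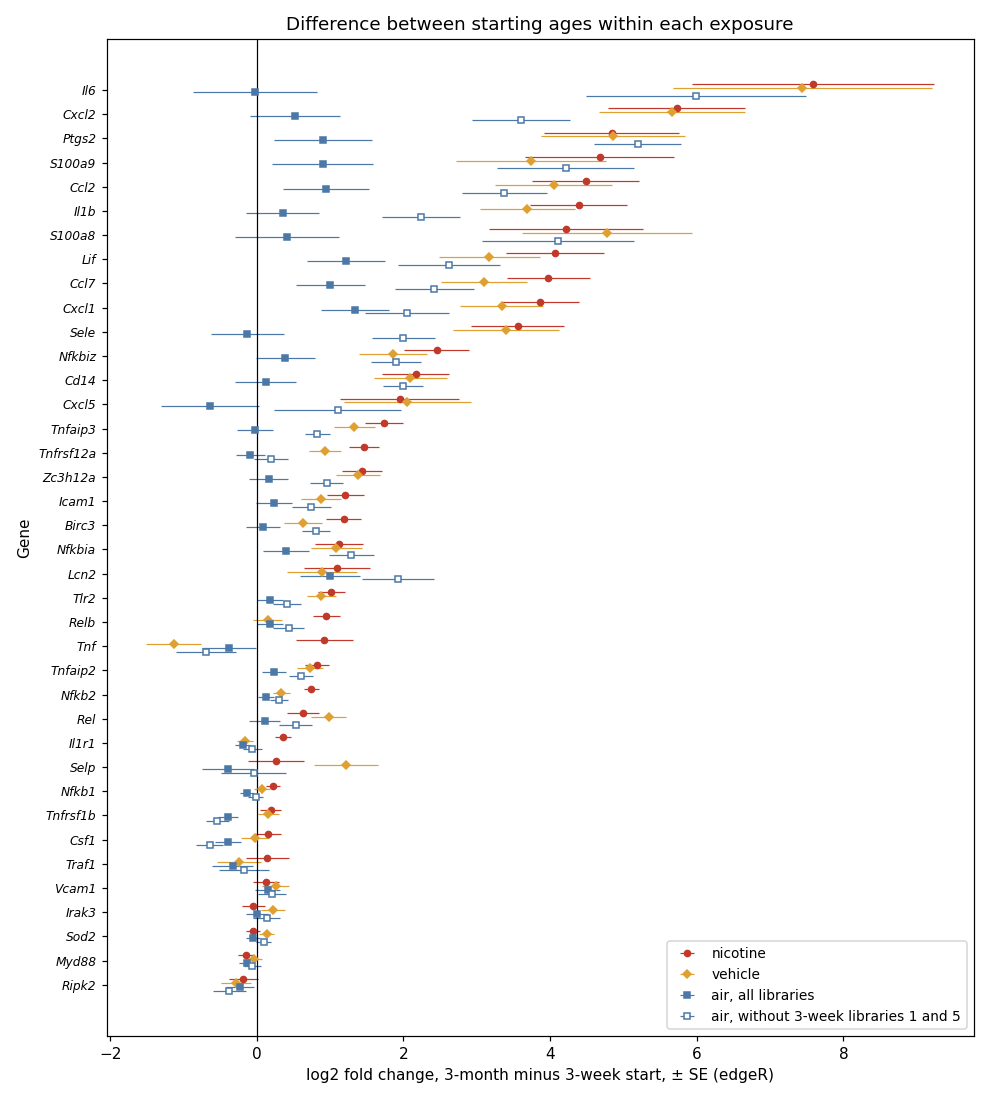
Log2 fold change ± SE of each member (rows) for the 3-month minus the 3-week start, within nicotine (red circles), vehicle (yellow diamonds), air with all libraries (filled blue squares) and air without 3-week libraries 1 and 5 (open blue squares). Values of nicotine and vehicle lie right of 0 in 34 and 32 of 38 members; filled air squares lie between -0.64 and 1.33, and open ones, for which libraries high in the members were removed by choice, lie to the right for 29 members.

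By role, 4 of 5 chemokines rose with starting age in each aerosol group. Cxcl1, a neutrophil attractant, had 7.31, 0.987, 5.34 and 2.05 CPM in 3-week nicotine and 66.7, 53.2, 37.8 and 76.0 CPM in 3-month nicotine, and 5.14, 11.9 and 4.78 CPM against 60.05, 116, 68.4 and 49.3 CPM in vehicle. Every 3-month library lay above every 3-week library of its exposure. This held in air too, where the 3-week libraries had 19.0, 14.7, 2.85 and 22.8 CPM and the 3-month libraries 38.8, 34.9, 49.1 and 27.1 CPM. Cxcl1 rose by 3.86 ± 0.53 on the log2 scale in nicotine (adjusted p = 0.000535) and 3.34 ± 0.57 in vehicle (adjusted p = 0.00447), with a value of 1.33 ± 0.46 in air (adjusted p = 0.363). Ccl7, a monocyte attractant beside Ccl2 in the genome, had 1.04, 1.48, 0.928 and 1.26 CPM in 3-week and 25.7, 17.1, 9.13 and 22.6 CPM in 3-month nicotine (log2 fold change 3.98 ± 0.57, adjusted p = 0.000535). In vehicle Ccl7 had 1.91, 2.71 and 0.944 CPM against 18.3, 24.2, 12.8 and 7.83 CPM (3.10 ± 0.59, adjusted p = 0.00573). Cxcl2 had 6.89, 15.4, 5.60 and 13.7 CPM in 3-month nicotine and 17.3, 15.2, 10.7 and 4.45 CPM in 3-month vehicle. No 3-week aerosol library reached 0.5 CPM of Cxcl2, and the log2 fold change was 5.73 ± 0.94 in nicotine (adjusted p = 0.00110) and 5.66 ± 0.999 in vehicle (adjusted p = 0.00447). Ccl2 had 48.3, 65.5, 26.1 and 18.7 CPM in 3-month vehicle and 62.6, 39.8, 17.1 and 50.9 CPM in 3-month nicotine, with log2 fold changes of 4.05 ± 0.79 (adjusted p = 0.00697) and 4.48 ± 0.73 (adjusted p = 0.00115). Cxcl5 did not pass in either.

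Il6, Il1b and Lif rose in both aerosol groups, and Tnf and Csf1 in neither. Il6 had 7.44, 4.99, 0.415 and 8.17 CPM in 3-month nicotine and 10.8, 5.03, 4.49 and 1.25 CPM in 3-month vehicle. Per depth this was 271-fold (95% interval 48.3 to 10747) and 240.2-fold (42.8 to 9515) the 3-week level, with intervals for counting error only, since each 3-week aerosol group held 1 count. Nicotine library 3 of the 3-month start held 6 Il6 counts and was far below its group. Il1b had log2 fold changes of 4.39 ± 0.66 in nicotine (adjusted p = 0.000744) and 3.69 ± 0.65 in vehicle (adjusted p = 0.00447), with no overlap. Lif, a cytokine of the interleukin-6 family, had 0.261, 0.329, 0.619 and 0.0789 CPM in 3-week and 7.05, 6.06, 1.45 and 7.55 CPM in 3-month nicotine (log2 fold change 4.07 ± 0.67, adjusted p = 0.00110). Library 3 was again the lowest of 3-month nicotine. Tnf had a log2 fold change of 0.92 in nicotine and of -1.13 ± 0.38 in vehicle (adjusted p = 0.0506).

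Among receptors, Tnfrsf12a had the smallest p of all members in nicotine, with 108, 141, 88.0 and 110 CPM against 44.4, 33.6, 51.2 and 33.2 CPM (log2 fold change 1.46 ± 0.20, adjusted p = 0.000484). In vehicle its log2 fold change was 0.93 ± 0.22 (adjusted p = 0.0133). Cd14 and Tlr2, which recognise bacterial products, rose in both aerosol groups, by 2.17 and 1.01 in nicotine and by 2.09 and 0.88 in vehicle on the log2 scale. Il1r1 rose in nicotine (0.36 ± 0.11, adjusted p = 0.0379) and had a value of -0.16 in vehicle. For the 5 members called in 1 aerosol group but not the other (Nfkb2, Relb, Birc3, Il1r1 and Rel), the difference between the groups was not tested. Myd88, Tnfrsf1b, Ripk2 and Traf1 passed in neither.

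Of the subunits, Nfkb2 rose in nicotine, with 58.6, 50.4, 43.7 and 55.0 CPM against 31.5, 31.9, 30.7 and 29.8 CPM and no overlap (log2 fold change 0.75 ± 0.11, adjusted p = 0.000535). Relb, the partner of p52, rose in nicotine too (0.95 ± 0.19, adjusted p = 0.00366), and Rel in vehicle (0.98 ± 0.24, adjusted p = 0.0145). Nfkb1 passed in neither, and its 6 group means lay between 57.7 and 71.9 CPM.

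Inhibitors and feedback genes rose in 6 of 7 cases in nicotine and 5 of 7 in vehicle. Tnfaip3 had 11.7, 15.4, 10.6 and 15.02 CPM in 3-month nicotine and 10.7, 13.5, 11.5 and 11.3 CPM in 3-month vehicle. All lay above every 3-week aerosol library, whose highest was 5.54 CPM, and the log2 fold change was 1.74 ± 0.26 in nicotine (adjusted p = 0.000739) and 1.33 ± 0.28 in vehicle (adjusted p = 0.00838). Nfkbia rose by 1.12 ± 0.32 in nicotine (adjusted p = 0.0322) and 1.08 ± 0.35 in vehicle (adjusted p = 0.0469). Nfkbiz, a nuclear IkB protein needed for Il6 and Lcn2 transcription, rose by 2.45 and 1.86, Zc3h12a, the ribonuclease Regnase-1 that degrades cytokine transcripts, by 1.43 and 1.38, and Tnfaip2 by 0.82 and 0.72. Birc3, a ubiquitin ligase of tumour necrosis factor receptor complexes, rose by 1.18 ± 0.24 in nicotine (adjusted p = 0.00443) and had a value of 0.63 in vehicle. Irak3, the inhibitor IRAK-M, passed in neither.

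Sele and Icam1 rose in both aerosol groups and Vcam1 and Selp in neither. Sele had 8.29, 7.35, 4.29 and 13.4 CPM in 3-month nicotine and 8.25, 7.92, 4.62 and 3.38 CPM in 3-month vehicle. Every 3-week aerosol library was under 1 CPM, and the log2 fold change was 3.56 ± 0.64 in nicotine (adjusted p = 0.00186) and 3.40 ± 0.72 in vehicle (adjusted p = 0.00879). Among effectors, Ptgs2 had 23.5, 20.5, 9.96 and 27.1 CPM in 3-month nicotine and 32.4, 29.0, 29.3 and 21.4 CPM in 3-month vehicle, with log2 fold changes of 4.84 ± 0.92 (adjusted p = 0.003215) and 4.86 ± 0.98 (adjusted p = 0.00736). S100a8 and S100a9 rose by 4.22 and 4.68 in nicotine and by 4.78 and 3.74 in vehicle. Sod2 and Lcn2, a siderophore-binding protein, passed in neither.

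In nicotine, 24 members lay wholly higher (9.58% of all genes) and 1, Myd88, wholly lower (9.37%), and 21 to 23 members were called when 1 library was left out. In vehicle, 26 lay wholly higher (8.71% of all genes) and Tnf and Il1r1 wholly lower (9.01%), but 0 were called without vehicle library 1 of the 3-week start, or without its libraries 1 and 2. Without vehicle library 2 alone the count was 15 and without vehicle library 4 it was 22. Shares of all genes called are not given for any of these fits with libraries left out. Their counts may thus not be particular to the members.

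In air the members' levels were divided within the 3-week group. With all libraries, Cxcl1 lay wholly higher and Tnfrsf1b, a receptor for tumour necrosis factor, wholly lower (2.15% and 2.85% of all genes). Tnfrsf1b had 13.5, 15.9, 15.9 and 12.2 CPM in 3-week and 11.4, 11.7, 9.35 and 11.5 CPM in 3-month air (log2 fold change -0.39 ± 0.14, adjusted p = 0.365). Without libraries 1 and 5, 21 members passed the threshold, 19 higher and 2 lower, against 5.37% of all genes in either direction. Since these libraries were picked for their high levels of the members, higher values in 3-month air then follow from that choice, and the count is a description and no evidence of a difference. Ptgs2 had 15.6, 14.2, 16.5 and 28.9 CPM in 3-month air against 22.6, 0.682, 0.278 and 16.9 CPM in 3-week air, so that libraries 1 and 5 lay within the 3-month range and libraries 2 and 4 far below it. Leaving out only 1 of the 8 air libraries gave 0 members called in each case.

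**Figure D5:**
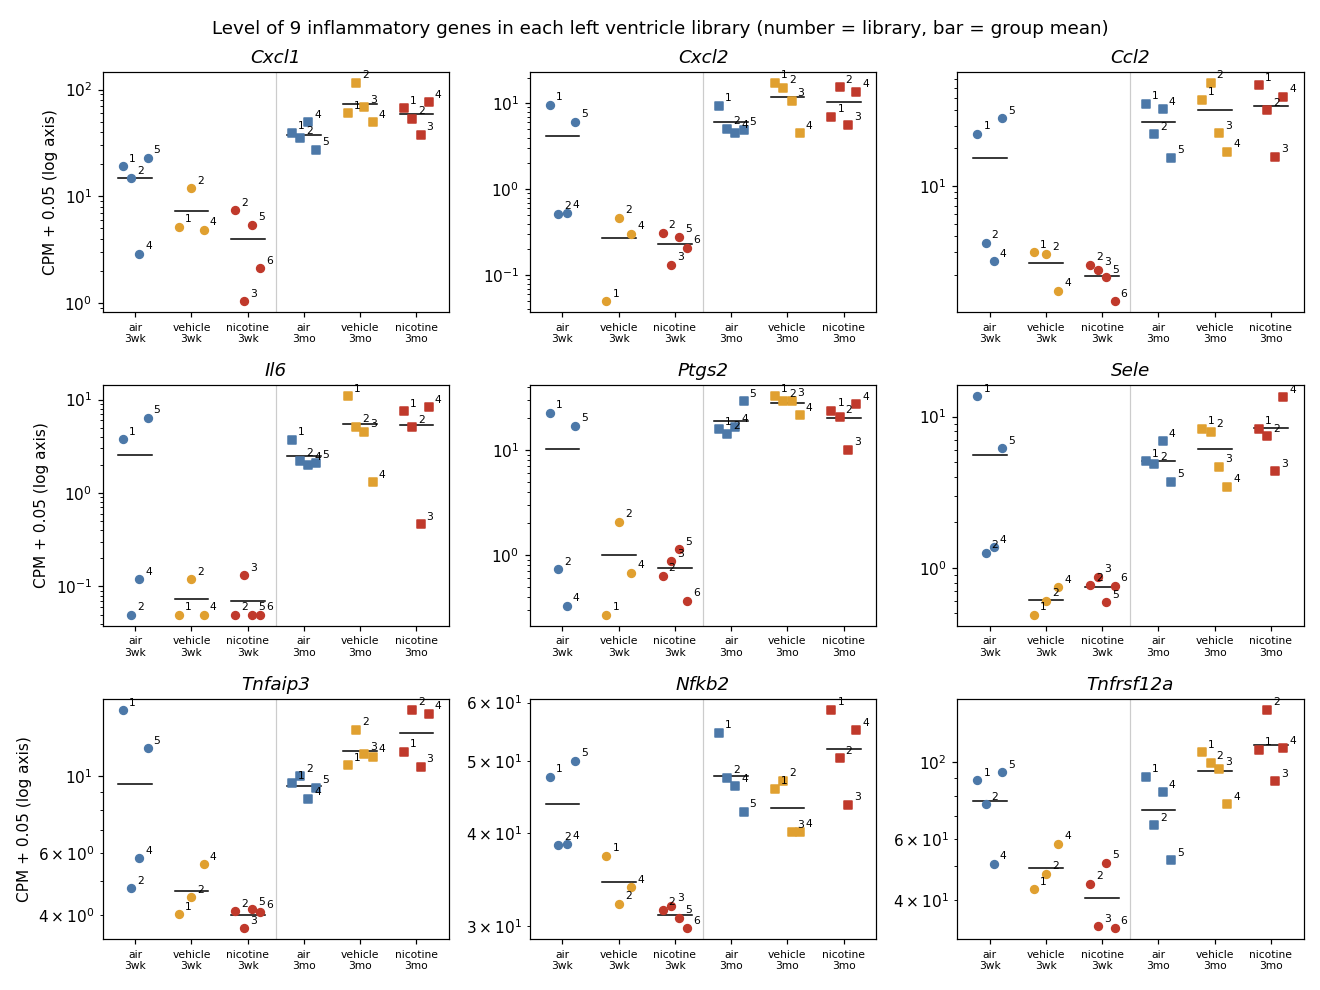
Level of 9 members in each library, as CPM + 0.05 on a log axis, with circles for the 3-week and squares for the 3-month start, the library number beside each point and a bar at the group mean. In Cxcl2, Ccl2, Il6 and Ptgs2, 3-week air libraries 1 and 5 lie at the level of the 3-month libraries and air libraries 2 and 4 at that of the 3-week aerosol libraries.

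The rest of the pathway was read from a further list. Of 40 further components (adaptors, kinases, ubiquitin ligases, other IkB proteins and Rela), 0 passed in nicotine against air of the 3-week start (0.813% of all genes in either direction). In vehicle against air 4 fell and 2 rose (16.2% of all genes in either direction), and the 4 with the smallest p all fell: Rela, the p65 subunit (-0.51 ± 0.15, adjusted p = 0.0309), the kinase Ripk1 (-0.65 ± 0.19, adjusted p = 0.0313), the adaptor Bcl10 (-0.48 ± 0.14, adjusted p = 0.0313) and the Toll-like receptor adaptor Ticam2 (-1.58 ± 0.46, adjusted p = 0.0314). With starting age, 6 rose and 1 fell in nicotine (9.52% of all genes) and 5 rose and 4 fell in vehicle (12.5% of all genes). Rela rose by 0.84 ± 0.13 in nicotine (adjusted p = 0.000931) and 0.71 ± 0.15 in vehicle (adjusted p = 0.00736), and Bcl10 by 0.68 and 0.74. Ripk1 and Nfkbid, a further IkB protein, rose by 0.83 and 1.98 in nicotine, and Rbck1, a subunit of a ubiquitin ligase, and the adaptor Traf2 fell by 0.54 and 0.52 in vehicle. Rela had 41.8 ± 4.74 (SD, n = 4) CPM in 3-week and 74.7 ± 10.3 (SD, n = 4) CPM in 3-month nicotine. None of the 40 passed in the other comparisons.

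Of 20 receptors and ligands that pair with members, 17 had counts enough for testing. In vehicle against air of the 3-week start 2 rose and 1 fell (16.2% of all genes in either direction). With starting age 2 rose and 1 fell in nicotine (9.52% of all genes) and likewise in vehicle (12.5%). None passed in the other comparisons. With 17 genes tested, these counts are not read as particular to the partners. Cxcr2, the receptor of Cxcl1 and Cxcl2 on neutrophils and one of the 10 neutrophil markers above, rose with starting age in nicotine (adjusted p = 0.00588) and vehicle (adjusted p = 0.0214). It had at most 0.0823 CPM in the 3-week aerosol libraries, 0.553 to 1.48 CPM in 3-month nicotine and 0.251 to 0.825 CPM in 3-month vehicle. Ptger4, a receptor for the prostaglandin that Ptgs2 helps to make, rose by 1.03 and 1.14. Tnfsf12, the ligand of Tnfrsf12a, fell by 0.71 in nicotine (adjusted p = 0.0122) and had risen in vehicle against air with the 3-week start (0.63 ± 0.18, adjusted p = 0.0289). In that last comparison Slc22a17, a receptor for Lcn2, also rose (1.12 ± 0.35, adjusted p = 0.0388) and the integrin chain Itgb1 fell (-0.69 ± 0.21, adjusted p = 0.0338). Slc22a17 fell with starting age in vehicle (-1.25 ± 0.35, adjusted p = 0.0284).

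The authors' deposited table of nicotine against air for the 3-week start lists 37 of the members, and 7 of them have an adjusted p under 0.05 there, all lower, against 0.971% of its genes. In the authors' deposited table these are Cxcl2 (log2 fold change -4.49), Ccl2 (-3.14), Sele (-3.00), Ccl7 (-2.22), Tnfaip3 (-1.27), Tnfrsf12a (-0.94) and Nfkb2 (-0.51). The authors' deposited table for the 3-month start lists 37 members, and 1 of them, Il1b (1.06, adjusted p = 0.0396), is under 0.05, against 0.307% of its genes. In the authors' deposited table of gene ontology terms, which names no comparison, the inflammatory response has an adjusted p of 0.0412 and 7 genes listed, among them Ccl2, Ccl7, Cxcl2, Sele and Tnfaip3.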

How the data were processed

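Per the labels, total RNA of flash-frozen left ventricles was extracted with Trizol. The main deposited file holds raw gene counts in whole numbers. DESeq2, featureCounts (Subread 1.5.2), STAR 2.5.2b and Trimmomatic 0.36 are named in the submitters' processing notes. Build, annotation and strand setting of the counting were not given in the sources used here. Exons of Icam1, Il1b, Irak3, Myd88, Nfkb2, Selp, Tnfaip2 and Vcam1 overlap genes on the opposite strand in GENCODE vM21, so their counts are uncertain. The authors' deposited comparisons give log2 fold changes, p-values and, as signal, counts divided by a size factor per library (checked, not used further). Another deposited table gives p-values of gene ontology terms.

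Gene names and exonic lengths came from GENCODE vM21. All 23 count columns were matched to samples by name. edgeR 4.0.16 in R 4.3.3 was run with filterByExpr (minimum count 10), TMM and 1 robust quasi-likelihood fit of the 6 groups (17 residual degrees of freedom), with Benjamini-Hochberg adjustment over 15500 genes and a threshold of 0.05, two-sided. Values are CPM or log2 fold changes ± SE. The tests were also run on simulated data. The outcome of that run is not given here, and nothing is concluded from it. No 2 libraries of the same group agreed within sampling noise. Libraries of different groups were not compared in this way. Members, lists and tests were chosen with earlier results of these data known. Values per library are given for members past the threshold in a comparison, at most the 8 with the smallest p, or for the 2 with the smallest p where none passed; from the other lists at most 4 genes past the threshold are named per comparison; other genes, such as Tnf and Il6, were chosen after their values were seen. Alternatives were other scaling, no filter, a length offset, DESeq2 1.42.0, other sets of libraries and a replicate block. Promoter windows of Relb, Cd14, Ccl2, Nfkb1, Ccl7, Ripk2, Cxcl5, Nfkbiz and Vcam1 were not used here.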

Additional observations from a re-analysis of the deposited data

Results flagged for a closer look

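The difference between starting ages in the nicotine effect was past the threshold for Tnfrsf12a (-1.55 on the log2 scale) and Tnfaip3 (-1.76), as tested within edgeR's fit.

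In 190 sets of 4 libraries, each 1 member in 1 group, 16 libraries lay far from the other 3, with a gap to the nearest of them that takes up most of the range of the 4. Chance alone flags about 1 in 20 such sets. In the 3-month nicotine group, library 3 was low in Cd14 (17.8 CPM, others 30.1 to 31.4), Nfkbia (57.6 CPM, others 119 to 130) and Traf1 (1.45 CPM, others 2.33 to 2.48), and library 4 was low in Il1r1 (15.6 CPM, others 17.1 to 17.4). In 3-month air, library 1 was high in Cxcl2 (9.40 CPM, others 4.49 to 5.03) and Il6 (3.64 CPM, others 1.96 to 2.15), library 5 was high in Ptgs2 (28.9 CPM, others 14.2 to 16.5) and library 4 was low in Tnfrsf1b (9.35 CPM, others 11.4 to 11.7). In 3-month vehicle, library 1 was high in Lcn2 (3.24 CPM, others 1.37 to 1.53), library 4 was high in Tnfrsf1b (13.3 CPM, others 12.1 to 12.2) and library 2 was low in Vcam1 (20.3 CPM, others 23.8 to 24.4). In 3-week nicotine, library 3 was low in Birc3 (9.54 CPM, others 10.6 to 10.7) and Tnfaip3 (3.62 CPM, others 4.03 to 4.10), and held the single Il6 count of its group (0.0823 CPM). In 3-week air, library 2 was low in Irak3 (5.72 CPM, others 8.32 to 8.76) and library 5 was high in Myd88 (16.3 CPM, others 12.6 to 13.2).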

How the results depend on the processing

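Members called in nicotine against air of the 3-week start, 7 in all, numbered 11 with RLE scaling, 3 without the filter and 23 with DESeq2. They numbered 0 when fitted on the compared groups or on libraries of that age alone, and 0 without air libraries 1 and 5. For vehicle against air, 13 in all, the count was 4 without the filter, 21 with DESeq2 and 0 in the fits of the compared groups, of that age, without air libraries 1 and 5, and without vehicle libraries 1 and 2. Without air libraries 1 and 5, picked for their high members, the vehicle estimates of Cd14 (0.0693) and Ptgs2 (0.89) changed sign among the members called, and over all 38 members negative estimates went from 37 to 29 in nicotine and from 34 to 25 in vehicle. Nicotine against vehicle of the 3-week start had 1 call with DESeq2. With the 3-month start, vehicle against air had 5 calls in the fit of the compared groups and 4 in that of its age, and nicotine against vehicle 1 in each. The difference of nicotine effects had 11 calls with DESeq2, 1 in the fit of the compared groups and 0 without air libraries 1 and 5, and that of vehicle effects 1 with DESeq2. The 3-month against the 3-week air libraries had 21 calls without air libraries 1 and 5, a count that this choice favours, and vehicle had 0 without vehicle libraries 1 and 2 of the 3-week start. With 1 library left out, counts ran from 0 to 21 for nicotine against air, 0 to 23 for vehicle against air and 0 to 4 for nicotine against vehicle of the 3-week start. They ran from 0 to 15 for the nicotine and 0 to 6 for the vehicle difference of effects, 0 to 22 for vehicle and 21 to 23 for nicotine between ages, and were 0 throughout for air between ages and the 3-month comparisons. Where 1 library was left in a group, it was assumed to vary like the others. Smaller fits tested fewer samples. Otherwise the cause was not tested. Shares of all genes called are not given beside these counts, so a change in count may not be particular to the members.

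Deviations of same-numbered libraries had mixed correlations (25 pairs, -0.37 to 0.283, 4 over 0.1). Whether a shared number stands for a shared cage, day or batch was not tested. With a replicate block, 0 members were called in nicotine and vehicle against air of the 3-week start and in the difference of nicotine effects. Between ages 10 were called in vehicle and 17 in nicotine. Shares of all genes called with the block are not given here, so these counts may not be particular to the members. Depth limits the least abundant members: Il6 had 1 count in each 3-week aerosol group.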
